A study of Homo sapiens with 4 samples.

Results

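The tip of the short arm of chromosome 11, part of band 11p15, carries the beta-globin genes and an imprinted gene cluster. Its enhancers and promoters are described here by the RNAs found on them. The elements are all those of a deposited GRID-seq table that lie on chromosome 11 and start before 10 Mb, which gave 267 of the 33948 elements in the table. Below, 11p15 stands for this stretch of 10 Mb only. Genes that start beyond it are counted with the rest of chromosome 11, even where they lie in the same band. By the start of the element, 8 lay in the beta-globin locus (5.2 to 5.3 Mb), 31 in the imprinted cluster (2 to 3 Mb) and 228 elsewhere in 11p15. The table calls 173 of them enhancers and 94 promoters, and 64.8% were enhancers against 70.3% in the whole table. The element nearest below 10 Mb, an enhancer at SBF2, had 2 RNAs in WT and 3 in R320*, and the nearest above it, a promoter of the same gene, had 4 and 5.

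GRID-seq links each RNA in fixed nuclei to the DNA beside it, so a connection is an RNA listed at an element. All cells were K562, a human leukaemia line with erythroid features that transcribes embryonic and fetal globin genes. They carried either wild-type RUNX1 (WT) or RUNX1 R320*, which puts a stop codon after the DNA-binding domain of RUNX1, a transcription factor of blood cells. Each genotype had 2 libraries, 4 in all, from cells fixed with 2 mM DSG for 45 minutes and 3% formaldehyde for 10 minutes. Both groups share the K562 background, and whether the mutant cells were 1 clone, or the libraries separate cultures, is not stated in these sources. The deposited table holds 1 score per connection and genotype, so no difference below has a replicate spread or a test, and each SD is over connections. A score is either 0 or at least 1.2, and a 0 is read as not listed rather than as a measured zero. The sources used here do not give how the score was made or its scale, and the sequencing depth is unknown.

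The beta-globin genes lie in the order of their use in development, with embryonic HBE1 and fetal HBG2 nearer to a distant enhancer cluster than adult HBD and HBB. The imprinted cluster holds genes used from only the maternal or only the paternal copy. In it, KCNQ1OT1 is a long noncoding RNA made from the paternal copy inside KCNQ1, known for silencing neighbours in cis such as CDKN1C, a cell cycle inhibitor. RUNX1 binds DNA through its Runt domain.

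To show what such an element looks like in sequence, 4 promoter windows are given, each lying wholly inside an element of the table. HBD lies in the element with the most RNAs of the globin locus in R320*, CTSD and TRIM21 in elements with 2-fold or larger differences in opposite directions, and NAP1L4 in the promoter element at the edge of the imprinted cluster. The windows run 5′ to 3′ on the gene's strand, minus for all 4, and come from RefSeq (GRCh38.p14, the same coordinates as hg38). They lie at chr11:5234434-5234733 (HBD), chr11:4393653-4393952 (TRIM21), chr11:1763878-1764177 (CTSD) and chr11:2992280-2992579 (NAP1L4, 1 of 4 windows of this gene). Capitals mark matches on either strand to GATAA (GATA factors), TGTGGT (RUNX factors), CCACCC (KLF factors) and CCAAT, and no matches of different motifs overlap here.
HBD: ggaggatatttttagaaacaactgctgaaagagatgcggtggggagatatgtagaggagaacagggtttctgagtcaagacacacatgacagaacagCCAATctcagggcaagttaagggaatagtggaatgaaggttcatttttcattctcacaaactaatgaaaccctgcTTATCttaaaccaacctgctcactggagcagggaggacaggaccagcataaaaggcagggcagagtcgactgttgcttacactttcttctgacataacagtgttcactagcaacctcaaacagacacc
TRIM21: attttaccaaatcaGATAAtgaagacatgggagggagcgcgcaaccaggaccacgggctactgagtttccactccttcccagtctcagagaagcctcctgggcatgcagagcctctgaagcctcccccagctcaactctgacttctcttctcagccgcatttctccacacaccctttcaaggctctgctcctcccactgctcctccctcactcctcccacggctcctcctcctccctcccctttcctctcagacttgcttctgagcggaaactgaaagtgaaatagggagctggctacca
CTSD: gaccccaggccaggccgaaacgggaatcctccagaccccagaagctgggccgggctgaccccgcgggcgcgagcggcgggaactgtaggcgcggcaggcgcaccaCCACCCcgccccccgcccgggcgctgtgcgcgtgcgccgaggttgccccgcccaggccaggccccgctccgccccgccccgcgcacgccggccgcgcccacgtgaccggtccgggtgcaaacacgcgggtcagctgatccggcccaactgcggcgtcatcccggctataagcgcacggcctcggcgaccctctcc
NAP1L4: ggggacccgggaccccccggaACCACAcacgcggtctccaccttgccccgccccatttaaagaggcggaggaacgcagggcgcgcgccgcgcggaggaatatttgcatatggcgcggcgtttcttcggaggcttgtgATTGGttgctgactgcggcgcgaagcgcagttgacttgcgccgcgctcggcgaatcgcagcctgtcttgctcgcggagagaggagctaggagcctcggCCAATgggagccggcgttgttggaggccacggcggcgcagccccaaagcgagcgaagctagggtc
The HBD window held 1 GATAA and 1 CCAAT match, and TRIM21 held 1 GATAA match. The CTSD window held 1 CCACCC match, while NAP1L4 held 1 TGTGGT and 2 CCAAT matches. Of all 35116 promoter windows of the same length, 22.7% hold GATAA, 13.1% TGTGGT, 34.3% CCACCC and 34.6% CCAAT. Of the 105 windows that lay wholly inside an 11p15 element, of 80 genes and 58 elements, these shares were 11.4%, 8.57%, 34.3% and 29.5%. A match is a run of letters and not a shown binding site.

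The 267 elements held 944 connections with 80 RNAs, of which 726 were listed in WT and 789 in R320*. Of these, 571 (60.5%) were listed in both genotypes, against 45.2% in the whole table and 45.0% on the rest of chromosome 11. A further 218 connections were listed in R320* only, 23.1% of the total against 28.5% in the table, and 155 in WT only, 16.4% against 26.3%. The 741 connections with RNAs of the same chromosome that the table types as cis were listed 138 times in R320* only (18.6%, background 26.4%) and 70 times in WT only (9.45%, background 22.1%). The 164 connections with RNAs of other chromosomes (trans) were listed 78 times in R320* only (47.6%, background 41.5%) and 81 times in WT only (49.4%, background 47%). Just 5 of those 164, or 3.05%, were in both, against 11.5% of trans connections in the table.

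Scores of the 571 shared connections lay close together in the 2 genotypes. The median difference, R320* minus WT, was -0.01 units ± 0.20 (SD over connections), against 0.04 in the whole table. Of the 571, 267 (46.8%) were higher in R320*, where the table had 58.6% higher. No shared connection differed by 1 unit or more in either direction, and the table's shares past that size were 0.0998% higher and 0.0749% lower. Differences ran from -0.94 to 0.76, with 9 connections (1.58%) at least 0.5 units higher and 6 (1.05%) at least 0.5 units lower, where the table had 3.55% and 2.07%.

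At the level of elements, 98 of 267 had more RNAs in R320* (36.7%, against 36.6% of all elements of the table) and 65 had fewer (24.3%, against 32.4%). There were 39 elements listed in R320* only (14.6%, background 11.5%) and 17 listed in WT only (6.37%, background 12%). A 2-fold difference was asked of the 164 elements with RNAs in both genotypes and 2 or more RNAs on average. Of these, 12 (7.32%) passed it with more RNAs in R320* and 6 (3.66%) with fewer. The table's shares were 12.4% and 9.6%, so both shares at 11p15 lay under the background.

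Most connections were of RNAs from genes within the region. 15 RNAs of 11p15 genes made 652 of the 944 connections, and 73.8% of those were in both genotypes. AC104389.4 and AC084337.2, typed as protein-coding on chromosome 11 but without a position in the RefSeq table, added 110, of which 77.3% were in both. Another 11 RNAs from the rest of chromosome 11 made 18 connections, 3 in WT and 15 in R320*, with 0 in both. All 18 spanned more than 1 Mb. At elements on the rest of chromosome 11, 1475 connections spanned such distances. R320* alone listed 721 of those and WT alone 427, while 22.2% had a score in each genotype. The remaining 52 RNAs came from other chromosomes.

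**Figure D1:**
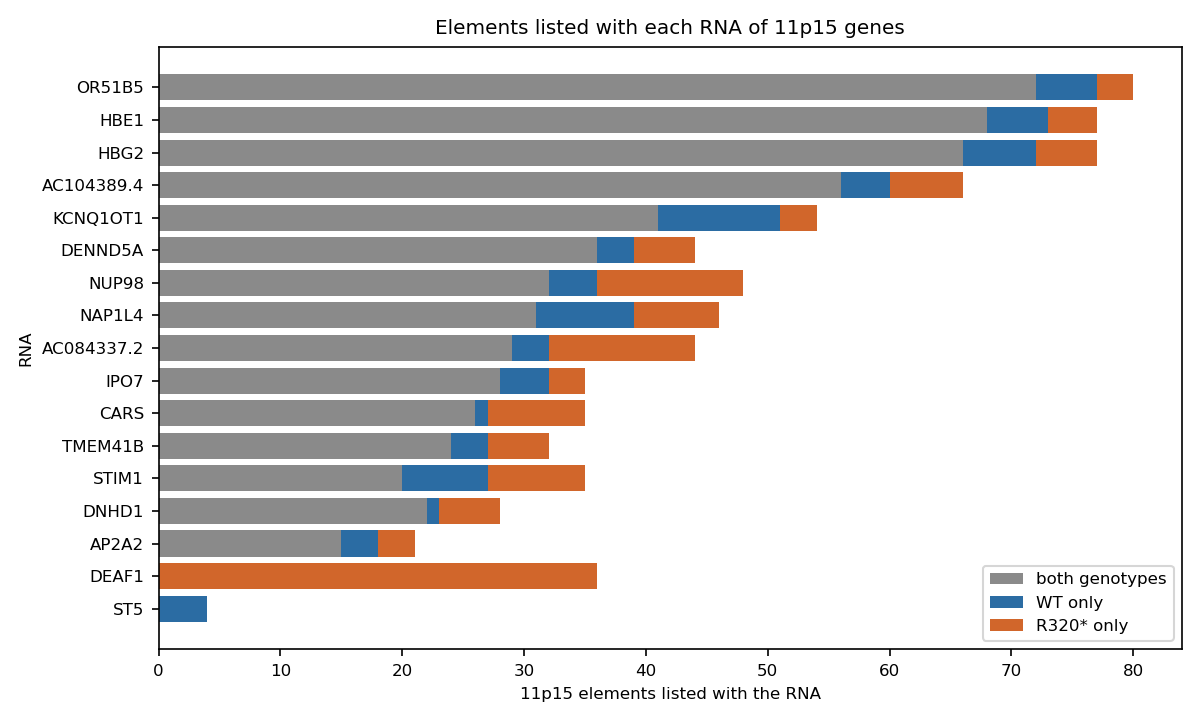
Number of 11p15 elements (x axis) listed with each of the 17 RNAs that come from 11p15 genes or have no RefSeq position on chromosome 11 (y axis), split into elements listed in both genotypes (grey), WT only (blue) and R320* only (orange). OR51B5 leads with 72 elements in both, 5 in WT only and 3 in R320* only, while DEAF1 has 36 in R320* only and ST5 has 4 in WT only.

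The RNAs with most elements came from the beta-globin side. OR51B5, an olfactory receptor gene next to the globin genes, was listed at 77 elements in WT and 75 in R320*, 72 of them in both. HBE1, the embryonic epsilon-globin gene, had 73 and 72 with 68 in both, and HBG2, a fetal gamma-globin gene, had 72 and 71 with 66 in both. AC104389.4 had 60 and 62 with 56 in both. Within 11p15 these 4 RNAs were thus nearly as frequent in 1 genotype as in the other. Over the whole table each had more connections in R320*. OR51B5 had 155 in WT and 188 in R320*, HBE1 152 and 192, HBG2 154 and 196, and AC104389.4 143 and 193.

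These 4 RNAs shared nearly all of their elements. HBG2 and HBE1 shared 75 of their 77 elements each, HBE1 and OR51B5 shared 77, which is 100% of HBE1's elements and 96.3% of OR51B5's, and all 4 were listed at 64 of 82 elements. Over the 65 elements where HBG2 and HBE1 were listed in both genotypes, their WT scores correlated across elements with r = 0.998, a description of 2 RNAs that share the libraries and the elements. OR51B5 scored above HBE1 and HBE1 above HBG2 at 57 of 71 elements in WT and 60 of 69 in R320*. RefSeq places HBG2 at 5253188 to 5254781, HBE1 at 5268345 to 5269945 and OR51B5 at 5340318 to 5505652. The table nevertheless types HBG2 and HBE1 as local at an OR51B5 promoter element that starts at 5499465, so its gene models reach beyond those of RefSeq. The sources used here do not say how reads were divided between overlapping gene models, and values of the 4 RNAs are uncertain as separate measurements. With HBE1 alone kept of the 4, 11p15 had 517 connections in WT and 581 in R320*, with 52.3% in both.

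At the 8 elements of the beta-globin locus itself, R320* listed more RNAs than WT, mostly RNAs of genes outside 11p15. There were 26 connections in WT and 38 in R320*, with 24 in both, 2 in WT only and 14 in R320* only. Those 14 are 35% of the locus's 40 connections, against 28.5% in the table and a similar 33.6% on the rest of chromosome 11. The 2 in WT only are 5%, against 26.3% and 21.4%, and the 24 in both are 60%, against 45.2% and 45.0%. Neighbouring elements often list the same RNA. With elements of 1 RNA merged within 100 kb, the locus had 7 connections in WT and 11 in R320*. Of the 7 globin elements with 2 or more RNAs on average, 2 passed a 2-fold difference with more in R320* (background 12.4%) and 0 with fewer (background 9.6%). On the rest of chromosome 11 those shares were 16.8% and 5.72%.

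The RNAs listed in both genotypes at most of these elements were those of the globin side. OR51B5 and HBE1 were each listed in both genotypes at 6 of the 8 elements, and HBG2 and AC104389.4 at 5. Their highest scores lay at the AC104389.1 promoter (5204692 to 5205129) and enhancer (5208993 to 5209201). At that promoter OR51B5 scored 2.39 in WT and 2.38 in R320*, HBE1 2.33 and 2.32, HBG2 2.29 and 2.30, and AC104389.4 2.201 and 2.22. Each of these 4 RNAs thus scored almost alike in the 2 genotypes there.

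At the HBB enhancer (5224318 to 5227186), by the adult beta-globin gene, the same 4 RNAs scored lower in R320*. OR51B5 scored 2.17 in WT and 2.06 in R320*, HBE1 2.09 and 2.00, HBG2 2.00 and 1.92, and AC104389.4 1.89 and 1.84. At the HBD enhancer (5232261 to 5236595), by the delta-globin gene, OR51B5 scored 2.08 and 1.96 and HBE1 2.02 and 1.92. HBG2 scored 1.96 and 1.86 there, and AC104389.4 1.83 and 1.75. Over the whole locus, 19 of 24 shared connections were lower in R320*, with a median difference of -0.02 units ± 0.07 (SD over connections) and a range of -0.12 to 0.21. Since the 4 RNAs share elements and scores, those 19 are fewer separate observations than their number.

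**Figure D2:**
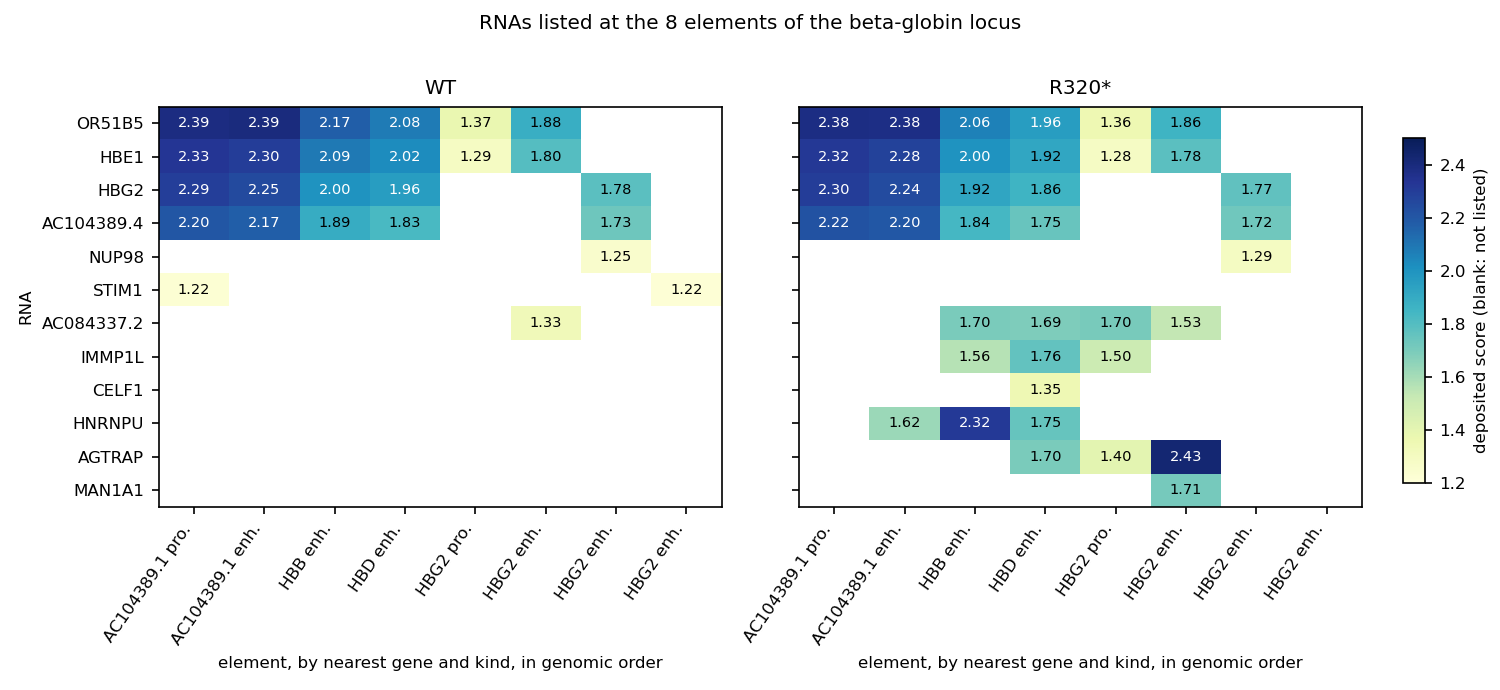
Deposited scores of the 12 RNAs (rows) at the 8 elements of the beta-globin locus (columns, in genomic order, named by nearest gene and kind), in WT (left) and R320* (right); blank cells are not listed. The upper rows are alike in both panels, with OR51B5 at 2.39 and 2.38 in the first column, while IMMP1L, CELF1, HNRNPU, AGTRAP and MAN1A1 appear on the right panel and have blank rows on the left.

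The RNAs listed at the locus in R320* only were 5, and AC084337.2 was listed at more of its elements. HNRNPU, which encodes an abundant chromatin-bound RNA-binding protein and lies on chromosome 1, was listed at 3 adjacent elements, with 1.62 at the AC104389.1 enhancer, 2.32 at the HBB enhancer and 1.75 at the HBD enhancer. AGTRAP, also of chromosome 1 and encoding a receptor-associated membrane protein, scored 1.70 at the HBD enhancer, 1.40 at the HBG2 promoter and 2.43 at an HBG2 enhancer (5260232 to 5260735). IMMP1L is a mitochondrial peptidase subunit gene from the rest of chromosome 11. It scored 1.56 at the HBB enhancer, 1.76 at the HBD enhancer and 1.501 at the HBG2 promoter. CELF1, an RNA-binding protein gene, scored 1.35 at the HBD enhancer, and MAN1A1, a mannosidase gene, 1.71 at the HBG2 enhancer. AC084337.2 was listed at 1 globin element in WT, with 1.33 against 1.53 in R320*, and at 4 in R320*, where the other three scores were 1.69 to 1.70.

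With these, the HBD enhancer had 4 RNAs in WT and 9 in R320*, the HBB enhancer 4 and 7, the HBG2 promoter (5239548 to 5257196) 2 and 5, and the HBG2 enhancer 3 and 5. Without HNRNPU, AGTRAP, IMMP1L and AC084337.2, chosen after their values were seen, the locus had 25 connections in each genotype. HNRNPU was not confined to R320* elsewhere, since it had 44 connections in WT and 103 in R320* over the whole table, and AGTRAP had 43 and 50. IMMP1L had 15 and 30, and CELF1 65 and 64.

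Toward the OR51B5 side the locus held fewer RNAs. The largest element, an HBG2 enhancer of 29.2 kb (5264171 to 5293351) that spans HBE1, had the same 3 RNAs in both genotypes, with HBG2 at 1.78 and 1.77, AC104389.4 at 1.73 and 1.72 and NUP98 at 1.25 and 1.29. STIM1, a calcium sensor gene, was listed in WT only, at 1.22 in both the AC104389.1 promoter and the last HBG2 enhancer (5297061 to 5298834), which had 0 RNAs in R320*. Just outside the locus, an OR51V1 enhancer below it had 4 RNAs in each genotype and an OR51B5 enhancer above it had 2 in WT and 0 in R320*.

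A further property of the globin elements bears on all of these scores. In 9 of the 40 globin connections (22.5%), the same RNA had exactly the same pair of scores at another element, against 1.78% in the table and 0 of 90 in the imprinted cluster. HBE1 scored 1.29 and 1.28, OR51B5 1.37 and 1.36, and AGTRAP 1.40 in R320*, both at the HBG2 promoter and at the OR51B5 promoter element starting at 5499465. Why the scores coincide was not tested.

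Within its bounds of 2 to 3 Mb, the imprinted cluster had nearly equal numbers of connections, 75 in WT and 74 in R320*. Of its 90 connections, 59 (65.6%) were in both, 16 in WT only and 15 in R320* only. Of 20 elements with 2 or more RNAs on average, 0 passed a 2-fold difference either way (background 12.4% with more and 9.6% with fewer). Of its 17 trans connections, WT alone listed 14 (82.4%) and R320* alone 3 (17.6%), against 47% and 41.5% of trans connections in the table. Those 14 were of 10 RNAs, some of them listed at 2 neighbouring elements. Among the 10, NYAP2, DTX2P1-UPK3BP1-PMS2P11 and PLCL1 had 0 connections in R320* over the whole table, against 404, 174 and 70 in WT. Of the cluster's 70 cis connections, WT alone listed 2 (2.86%) and R320* alone 12 (17.1%), against 22.1% and 26.4% of cis connections in the table. The other 56 were in both. The median score difference of the shared connections was 0.02 units ± 0.25 (SD over connections). The near equality in number depended on the bounds. With bounds of 1.9 to 3.2 Mb there were 101 connections in WT and 115 in R320*, with 57.7% in both. The bound at 2 Mb separates an H19 enhancer starting at 1998003, outside, from an H19 promoter starting at 2001891, inside.

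3 RNAs made most of the cluster's connections, namely KCNQ1OT1, NAP1L4, a histone chaperone gene, and CARS (CARS1 in RefSeq), the cysteinyl-tRNA synthetase gene. KCNQ1OT1 had its highest scores at 6 elements overlapping or on either side of its own gene (2608328 to 2699994). At a KCNQ1 enhancer starting at 2532310 it scored 3.09 in WT and 3.15 in R320*, and at the KCNQ1 promoter element, which overlaps the gene of the RNA, 2.59 and 2.63. At the promoter of CDKN1C it scored 2.91 and 2.99, and at an SLC22A18AS enhancer 3.04 and 3.25. The promoter of KCNQ1DN had 2.72 and 2.59, and that of SLC22A18, a transporter gene, 2.78 and 2.95. These 6 elements held its 6 highest scores in both genotypes. Other elements as near did not list it in either genotype. They were a KCNQ1 enhancer inside its gene (2681662 to 2682615) and KCNQ1 enhancers starting at 2722770, 2768887, 2774934, 2788220 and 2836617.

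Farther from its gene KCNQ1OT1 had lower scores on both sides. Between 1.6 and 3.3 Mb, bounds chosen after the values were seen, it was listed at 40 elements in WT and 40 in R320*, 39 of them the same. At ASCL2, a transcription factor gene of the cluster, its scores were lower in R320* at all 3 elements, 2.57 in WT against 1.69, 2.34 against 1.52 and 2.03 against 1.55. The first and second of these are among the 6 largest negative differences of the region. At the CD81 elements it was higher, 2.15 in WT against 2.38 at the CD81-AS1 enhancer, 1.97 against 2.26 at the CD81 promoter and 2.30 against 2.59 at a CD81 enhancer. CD81 encodes a tetraspanin.

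Beyond that stretch KCNQ1OT1 was listed more often in WT. Below 1.6 Mb it had 6 elements in WT and 3 in R320*, 2 of them shared. Beyond 3.3 Mb it had 5 in WT, at ZNF195, AC090587.1, a STIM1 promoter and enhancer, and ASCL3, and 1 in R320*, at OR51E1, with 0 shared. Those 6 scores lay between 1.22 and 1.53. Over all of 11p15 it had 51 elements in WT and 44 in R320*, a log2 ratio of -0.21, the lowest of the RNAs with a mean of at least 5 elements in which both genotypes were listed.

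**Figure D3:**
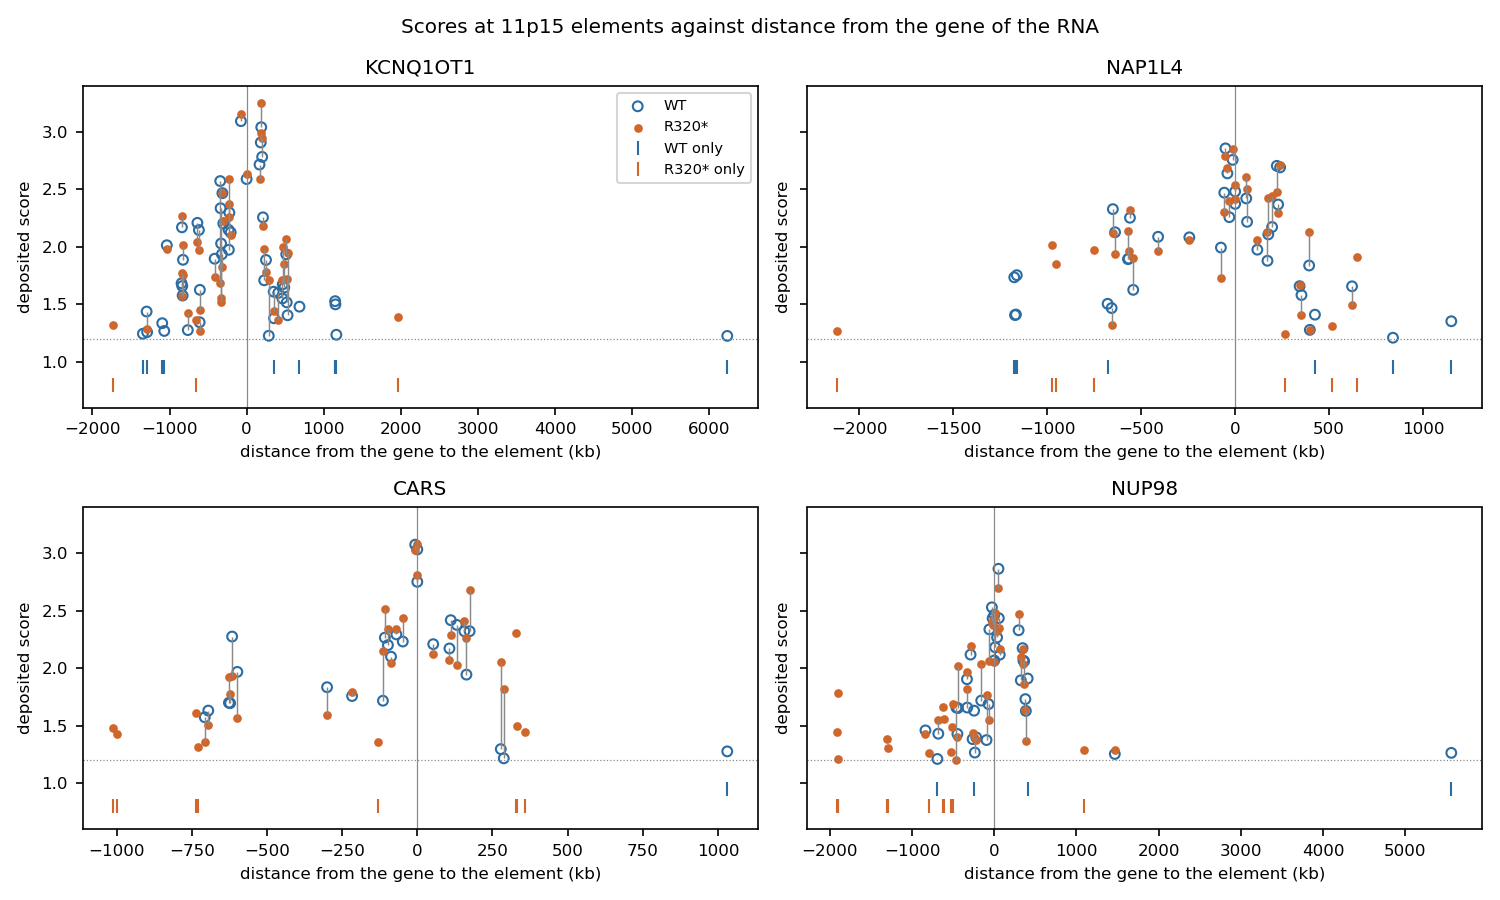
Deposited score (y axis) of KCNQ1OT1, NAP1L4, CARS and NUP98 at each 11p15 element against the distance in kb from the gene of the RNA to the element (x axis, negative toward the chromosome end), in WT (open blue) and R320* (filled orange), joined by a grey line where both are listed; ticks at the bottom mark elements listed in 1 genotype and the dotted line the minimum of 1.2. Elements that do not list the RNA are not drawn. Listed scores are higher toward the gene, with a highest score of 3.09 in WT and 3.25 in R320* for KCNQ1OT1. The highest for CARS is 3.08 in each, and NUP98 has orange ticks on its left side.

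NAP1L4 and CARS covered the same stretch with other peaks. NAP1L4 scored 2.86 in WT and 2.79 in R320* at the SLC22A18AS enhancer and 2.76 and 2.85 at the promoter of PHLDA2, an imprinted growth regulator. CARS scored 3.08 and 3.03 at the AC131971.1 promoter element (2987573 to 2993909), in which the NAP1L4 window printed above lies. Over 11p15, NAP1L4 was listed at 39 elements in WT and 38 in R320*, with 31 shared, and CARS at 27 and 34, with 26 shared.

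The 2 RNAs differed in where the unshared elements lay. NAP1L4 had 4 elements below 1.9 Mb in WT and 1 in R320*, with 0 shared, and 0 against 3 between 1.9 and 2.2 Mb, bounds chosen after the values were seen. CARS was listed in R320* only at H19 (1.43), at 2 ASCL2 elements (1.61 and 1.32) and at KCNQ1DN (1.36). On its other side, at ZNF195, CARS was listed at 2 elements in WT and 5 in R320*. The shared ones scored 1.30 in WT against 2.06 in R320*, and 1.22 against 1.82, the first and the fifth largest positive differences of the region. The others scored 2.31, 1.496 and 1.44.

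NUP98, a nuclear pore gene at 3675010 to 3797554, was listed within the imprinted cluster at 3 elements in WT and 5 in R320*, 2 of them shared. Below 3.2 Mb, a bound chosen after the values were seen, it was listed at 3 elements in WT and 13 in R320*, 2 of them shared, while beyond 3.2 Mb the numbers were 33 and 31, with 30 shared. The 11 elements in R320* only included the promoters of CD81 (1.30) and CDKN1C (1.26), the CD81-AS1 enhancer (1.39), and CTSD (1.45). All 11 scores lay between 1.21 and 1.79.

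Among the elements of the cluster, those with most RNAs were a C11orf21 enhancer and the TSPAN32 promoter, with 5 RNAs in WT and 4 in R320* each. At both, the trans RNAs FBXO38 and STXBP5 were listed in WT only and the trans RNA AC004936.1 in R320* only. The KCNQ1 enhancer at 2722770 went from 5 to 3 RNAs, without LMAN1 and PRKCB, and kept HBE1, HBG2 and OR51B5 at 1.202 to 1.29. NYAP2 at KCNQ1 (1.51 and 1.54) and DTX2P1-UPK3BP1-PMS2P11 at SLC22A18AS (2.00) and SLC22A18 (1.69) were listed in WT only.

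By the list of genes of the imprinted cluster drawn up for this region, 2 of 21 members were RNAs of the table, KCNQ1OT1 and NAP1L4. As the nearest gene of at least 1 element, 14 members were found. Membership of the list does not mean that a gene is imprinted in these cells, and the scores do not separate alleles. Elements of those 14 genes numbered 32 and held 75 connections in WT and 74 in R320*, with 57 in both. Connections per genotype, WT then R320*, were 18 and 12 at the 8 KCNQ1 elements, 13 and 13 at 4 OSBPL5 elements, 7 and 6 at 2 SLC22A18 elements, and 6 and 9 at 3 CD81 elements. At TSPAN32 they were 5 and 4, at ASCL2 4 and 5, at SLC22A18AS 4 and 4, and at NAP1L4 4 and 3. CDKN1C had 3 and 4, PHLDA2 and TSSC4 3 and 3 each, H19 and KCNQ1DN 2 and 3 each, and TH 1 and 2. The 8 connections in WT only at KCNQ1 were all of trans RNAs, and the other genes differed by at most 3 connections.

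The other 228 elements held 625 connections in WT and 677 in R320*, with 488 in both (60.0%). Of 137 with 2 or more RNAs on average, 10 passed a 2-fold difference with more in R320* and 6 with fewer (background 12.4% and 9.6%). The elements with most RNAs did not differ in number: the AC090587.1 enhancer by STIM1 and the ARFIP2 promoter had 9 RNAs in each genotype, 6 of them shared, and the TRIM66 promoter and an RPL27A enhancer had 8 in each. The MRGPRE promoter went from 9 to 7. Equal numbers there did not mean the same RNAs, since 6 of 12 RNAs were shared at the ARFIP2 promoter.

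The largest single addition in number was DEAF1, a transcription factor gene at 644233 to 707083. DEAF1 was listed at 0 elements in WT and at 36 in R320*, all of them between 305463 and 922736 within 11p15, and at no other element of the table. Its score was 3.04 at the DEAF1 element starting at 642564, 2.81 and 2.49 at 2 elements that overlap the gene, and 1.22 at the lowest. DEAF1 was not listed at a promoter element that also lies inside its gene (690928 to 698055). That element had NFAT5 in WT only and 0 RNAs in R320*. ST5 (DENND2B in RefSeq) was the opposite case, with 4 elements in WT, all typed as local at scores of 1.39 to 2.46, and 0 in R320* or elsewhere. Without DEAF1, 11p15 had 726 connections in WT and 753 in R320*, with 62.9% in both, and connections listed in R320* only were 182 in place of 218.

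The first megabase, where DEAF1 lies, had the lowest share of connections in both genotypes among the 10 windows of 1 Mb, 8.65% of 104. The highest was 80.8% of 156, between 6 and 7 Mb, where AC084337.2 leads.

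Elements with the largest ratios fell into a few stretches. The MRPL23-AS1 promoter (1987949 to 1989500), just outside the imprinted cluster, went from 1 RNA, KCNQ1OT1, to 7, with CARS, NAP1L4, ATM, AC004936.1, AC097528.1 and TMCC2 in R320* only. The CTSD promoter (1762096 to 1764748), by the gene of a lysosomal protease, went from 1 to 4 with AP2A2, C22orf34 and NUP98. TSPAN4 and CHID1 enhancers in the DEAF1 stretch also went from 1 to 4. The LMO1 enhancer (8202196 to 8208020) was listed with DENND5A in WT only and with AC104389.4, HBE1, HBG2 and OR51B5 in R320* only.

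In the other direction, the TRIM21 promoter (4392703 to 4394152), of a ubiquitin ligase gene, was listed with AC104389.4, HBE1, HBG2 and OR51B5 in WT and with STIM1 alone in R320*. A PGAP2 enhancer (3824323 to 3828714) went from 4 to 1, a STIM1 enhancer (3864123 to 3881330) from 6 to 2, and MUC5B and SWAP70 enhancers from 3 to 1. HBE1 and HBG2 were listed in WT only at the PGAP2, STIM1 and TRIM21 elements, and OR51B5 at those of STIM1 and TRIM21.

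From 3.8 to 4.4 Mb the 4 globin-side RNAs made 52 connections in WT and 42 in R320*, 41 of them shared, and from 7.5 to 8.3 Mb they made 4 and 15, with 4 shared. Both stretches were picked after the values were seen. The connections of the 4 RNAs there fall on 14 and 5 elements.

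Of the other RNAs of the region, DENND5A, a Rab regulator gene, had 39 elements in WT and 41 in R320*, with 36 shared, and TMEM41B, a lipid scramblase gene, 27 and 29 with 24 shared. IPO7, an import receptor gene, had 32 and 31 with 28 shared, and its shared scores had a median difference of -0.16 units, lower in R320* at 21 of 28. STIM1 had 27 and 28 with 20 shared, DNHD1, a dynein-related gene, 23 and 27 with 22 shared, and AP2A2, a clathrin adaptor gene, 18 and 18 with 15 shared. AC084337.2 had 32 and 41, with 29 shared. Its log2 ratio of 0.36 was the largest of the RNAs with a mean of at least 5 elements listed in both genotypes, followed by CARS at 0.33 and NUP98 at 0.29.

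Among single connections, the largest negative difference was that of OR51B5 at an AC104389.4 enhancer (5530050 to 5534796), 2.18 in WT and 1.24 in R320*. HBE1 and HBG2, which otherwise scored like OR51B5, had 2.13 and 2.15, and 2.11 and 2.15, at the same element. The differences were -0.63 units for IPO7 at a SWAP70 enhancer, -0.63 for DENND5A at an SBF2 enhancer and -0.61 for TMEM41B at a DENND5A enhancer. The largest positive differences besides those of CARS were of ENTPD3-AS1 at OR51B5 (0.66), IPO7 at AC026250.1 (0.65), TMEM41B at ZNF143 (0.63) and AP2A2 at DUSP8 (0.60).

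Connections over long distances were listed in both genotypes more often than elsewhere, and this rested on the globin-side RNAs. Under 100 kb from the gene, 83.3% of 144 connections were in both (80.5% in the table), and from 100 kb to 1 Mb 75.9% of 344 (61.1% in the table). Over 1 Mb, 54.9% of 182 were in both, against 27.0% in the table and 22.2% on the rest of chromosome 11. OR51B5, HBE1 and HBG2 made 120 of those 182 and had 80% in both, while the other RNAs had 6.45% of 62. Distances of HBE1 and HBG2 are from their RefSeq positions, which the table's gene models exceed.

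**Figure D4:**
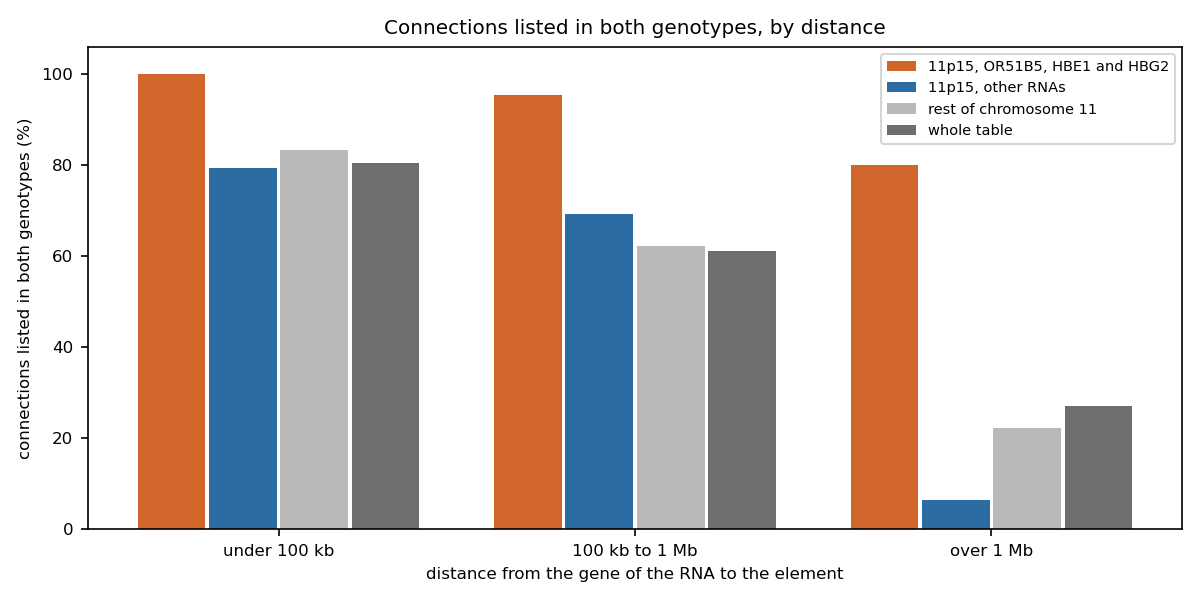
Share of connections listed in both genotypes (y axis, percent) by distance between the gene of the RNA and the element (x axis), for OR51B5, HBE1 and HBG2 at 11p15 (orange), other RNAs at 11p15 (blue), the rest of chromosome 11 (light grey) and the whole table (dark grey). Over 1 Mb the orange bar is at 80% and the blue bar at 6.45%, against 27.0% in the table.

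The 52 RNAs from other chromosomes were thinly spread. At 11p15, 23 were listed in WT only, 18 in R320* only and 11 in both, and their 164 connections fell into 91 runs of elements within 100 kb of each other. A single run was all that 34 of the 52 had. Of the 164 connections 3.05% were in both genotypes, against 11.5% of trans connections in the table. The numbers of RNAs in 1 genotype only were not compared with other regions. An RNA with so few elements can be listed in 1 genotype only. DLEU1, a long noncoding RNA of chromosome 13, was listed at 7 elements in WT and 0 in R320*, and C22orf34 at 0 and 5, all 5 between 1762096 and 1782508. The 5 trans connections listed in both genotypes were of SKI, at ZNF195 (1.27 and 1.499), an OR51B5 element (1.78 and 1.98) and TMEM41B (1.35 and 1.31), and of ENTPD3-AS1 and FBXO38 at another OR51B5 element. Of the 23 in WT only, 4 were absent from R320* in the whole table, namely NYAP2, DTX2P1-UPK3BP1-PMS2P11, NRP1 and PLCL1.

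Of the beta-globin list, 2 of 7 members, HBE1 and HBG2, were RNAs of the table, and HBB, HBD, HBG1, HBBP1 and BGLT3 were not. Of the alpha-globin genes 0 of 5 were, and of 10 erythroid regulators 3 were in the table (LMO2, MYB and ZFPM1) and 0 at 11p15. The abundant nuclear RNAs MALAT1 and NEAT1 had 0 and 1 connections at 11p15. Of 22 neighbour genes, 3 were RNAs (CARS, NUP98 and STIM1) and 16 were nearest genes of 36 elements, with 117 connections in WT and 130 in R320*, 88 in both. The 19 elements nearest to OR51 and OR52 olfactory receptor genes had 58 and 65, with 54 in both.

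Markers of the line were looked up, although a contact is not a level of RNA. Of 8 markers of K562, HBE1, HBG2 and TFRC were RNAs of the table. Of 10 markers of other cell types 3 were (LEF1, RBFOX3 and ZAP70), with 0 connections at 11p15. TFRC was not listed at 11p15 either, and HBE1 and HBG2 are genes of 11p15. These contacts therefore cannot check the identity of the line.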

How the data were processed

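GRID-seq libraries of K562 cells, 2 with WT and 2 with R320* RUNX1, were grouped by their labelled genotype. The submitters' processing notes name cutadapt 1.12, BWA, bedtools and hg38. The authors deposited a table of connections between RNAs and active enhancers or promoters with 1 score per genotype, either 0 or at least 1.2 (lowest 1.20001); the sources used here do not give its computation, pooling or depth. The deposited difference score equals R320* minus WT within 7.77e-16. The elements come in 2 blocks that share none.

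Connections were counted per element, RNA and genotype with Python 3.11.15, pandas 2.3.3 and NumPy 2.4.6. An element was called with at least 2-fold more or fewer RNAs, at least 1 RNA in each genotype and a mean of at least 2; a connection listed in both was called at 1 unit. Starts are printed counting from 1. Of 80 RNAs, 73 had a RefSeq position (GRCh38.p14), 4 through a synonym, and distance runs from the nearer gene end. The counting was tested on simulated data.

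Named items were the beta-globin and imprinted list members; the 10 RNAs with most connections and 5 per locus; 6 RNAs with the largest ratios each way (mean of at least 5); all globin elements, and in the imprinted cluster and the rest the 5 with most RNAs and 5 with the largest ratios each way; and the 6 connections with the largest score differences each way. Others were named after their values were seen. The members and lists were chosen with earlier results of these data known. No test was made, since the table is pooled by genotype.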

Additional observations from a re-analysis of the deposited data

How the results depend on the processing

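No paired analysis was possible because the deposited table is pooled by genotype, and for the same reason no library could be left out. Connection numbers, R320* over WT, stayed within the counting interval of the main value under every alternative run. This is a weak check, since the interval treats connections as independent and many are counted in both genotypes. At the globin locus the interval was wide, from -0.21 to 1.33 in log2 ratio. The log2 ratio at the globin locus ranged from 0 to 1.14. The median difference of the imprinted cluster, 0.02, changed sign in 3 alternatives: it was -0.02 with enhancers only, -0.02 centred on the table and -0.04 in the second block of elements, and those of all 11p15 and of the elements outside both loci, -0.01 each, lay between -0.05 and 0.01. The depth is unknown, and a connection near the minimum of 1.2 can be listed in 1 genotype by a small difference.

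Shares of connections in both genotypes moved as follows. Over all 11p15 the share was 63.9% over RNAs listed in both genotypes, 55.5% at promoters, 72.6% on the same chromosome and 55.3% without HBE1 and HBG2. It was 52.3% without HBG2, OR51B5 and AC104389.4, an alternative chosen after seeing the data, as were those without DEAF1 and without HNRNPU and AGTRAP. Outside both loci these were 63.5%, 52.9%, 71.7%, 54.5% and 51.1%, with 64.2% at enhancers and 64.0% in the second block. In the imprinted cluster the share was 76.9% at a minimum score of 1.5 and 80.8% on the same chromosome, and at the globin locus 33.3% without HBG2, OR51B5 and AC104389.4.

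Counts of elements with at least 2-fold more RNAs in R320*, 12 over all 11p15, were 5 with enhancers only, 7 with promoters only, 2 in the second block, 3 at a minimum mean of 4 RNAs and 24 with no minimum. Outside both loci they were 4, 6, 2, 2 and 19, and 5 at a minimum score of 1.5. At the globin locus they were 1 with enhancers only, with promoters only, at a minimum mean of 4, on the same chromosome only and without HNRNPU and AGTRAP, 0 in the second block, and 4 without HBE1 and HBG2 or without HBG2, OR51B5 and AC104389.4. In the imprinted cluster they were 1 at a minimum score of 1.5 and with wider bounds, and 3 with no minimum. Counts with at least 2-fold fewer, 6 over all 11p15, were 1 with promoters only and at a minimum mean of 4, 2 in the second block and 13 with no minimum. Outside both loci they were 1, 1, 2 and 12, and 3 at a minimum score of 1.5. In the imprinted cluster they were 1 at a minimum score of 1.5, with no minimum, without HBE1 and HBG2, and without HBG2, OR51B5 and AC104389.4. Shared connections at least 0.5 units apart were 9 higher and 6 lower, against 0 at 1 unit.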
